A study of Mus musculus with 4 samples.

Results

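The genes described here are 10 genes of endothelial cells and of the first blood cells: Kdr, Flt1, Tek, Tie1, Pecam1, Cdh5, Eng, Tal1, Lmo2 and Thbd. They were chosen by name, with earlier results of these data known. Their probes were found through the RefSeq accession that each array probe carries. Of 10 genes, 9 had a matched probe, with 11 probes in all out of 41174 gene probes on the array. No probe matched Tal1, which is not analysed here. Total RNA of 4 embryonic stem cell (ESC) lines of the mouse was hybridised to Agilent one-colour whole-genome arrays, with 1 array per line. The 2 KO lines had lost both copies of Dppa2 (ECAT15-2; genotype 15-2-/-) and also carried the conditional targeted allele of its neighbour Dppa4 (ECAT15-1; genotype 15-1CT/CT) on both copies. The 2 WT lines were 15-2+/+ and 15-1+/+, so that the KO and WT lines differed at both loci. All lines were derived from E3.5 blastocysts of intercrossed double heterozygotes, KO 1 and WT 1 from mother 1046 and KO 2 and WT 2 from mother 875. Their background was a mixture of 129Sv and C57/BL6 with a Cre or FLPe transgenic strain of unknown background. Before RNA was taken, the cells were kept for 3 days on gelatin, without a differentiation step, in medium with LIF and 15% serum.

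Endothelial and blood cells arise together from early mesoderm. VEGF ligands act on the receptor tyrosine kinases Kdr and Flt1, and angiopoietins on Tek, whose relative Tie1 modulates it. The transcription factors Tal1 and Lmo2 work in one complex at the start of blood formation, and transcription factors of the ETS family, which bind a GGAA core, are general regulators of endothelial promoters. Several of these genes are also used outside vessels: Pecam1 is a surface protein of mouse ESCs, Flt1 is made by trophoblast, Thbd by trophoblast and parietal endoderm, and Kdr by early mesoderm.

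Promoter sequences were available for 6 of the 10 genes (Kdr, Flt1, Tek, Tie1, Eng and Tal1, the last with 2 start sites). The 250 bases before the annotated start are shown for the 3 receptor genes with the greatest KO to WT differences described below, Flt1, Eng and Kdr, from RefSeq on build GRCm38.p6. The Flt1 window is chr5:147726012-147726261 on the minus strand, the Eng window chr2:32646345-32646594 on the plus strand, and the Kdr window chr5:75978456-75978705 on the minus strand. Each is written 5′ to 3′ in the direction of the gene, and capitals mark the ETS-type core GGAAGT or its reverse complement.
Flt1: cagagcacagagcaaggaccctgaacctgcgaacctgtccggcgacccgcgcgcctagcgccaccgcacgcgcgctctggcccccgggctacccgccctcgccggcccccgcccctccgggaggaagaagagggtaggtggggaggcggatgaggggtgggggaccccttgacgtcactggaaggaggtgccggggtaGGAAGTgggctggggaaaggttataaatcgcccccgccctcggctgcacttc
Eng: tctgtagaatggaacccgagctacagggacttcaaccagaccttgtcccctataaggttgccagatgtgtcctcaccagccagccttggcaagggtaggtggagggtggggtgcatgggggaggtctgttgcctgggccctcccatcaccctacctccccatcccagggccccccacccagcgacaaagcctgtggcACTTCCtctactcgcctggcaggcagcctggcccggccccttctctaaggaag
Kdr: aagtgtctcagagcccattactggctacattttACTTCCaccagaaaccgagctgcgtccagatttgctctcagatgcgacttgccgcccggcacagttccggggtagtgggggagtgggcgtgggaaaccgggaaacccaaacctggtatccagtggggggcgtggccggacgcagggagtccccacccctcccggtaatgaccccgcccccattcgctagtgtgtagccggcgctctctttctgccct
All 3 windows held GGAAGT once on either strand, beginning 52 bases before the start in Flt1, 53 in Eng and 217 in Kdr. Across 32851 promoter windows of this length, 19.7% held it at least once. Tie1 also held 1 copy, and Tek and both Tal1 windows held none. This longer core was picked after the sequences were seen; the bare GGAA, which it contains, was present in every one of the 7 windows and in 93.4% of all windows. The GATA-type motif GATAA was present only in 1 of the 2 Tal1 windows (22.6% of all windows), and the E-box CANNTG in Kdr, Tek, Tie1 and Eng (66.2% of all windows). CpG content varied among the genes: the Flt1 window held 23 CpG dinucleotides and the Kdr window 16, against 4 in Eng and 2 in Tek, where the median window held 6. Tie1 held 6, and the 2 Tal1 windows held 6 and 16. These matches describe letters only, and no binding was measured.

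The arrays matched their labels at the targeted gene. Dppa2 gave log2 signals of 7.05 and 7.12 in KO lines, against 12.09 and 12.03 in WT lines, and it fell 31.4-fold (limma adjusted p = 0.0089, or 0.079 with the mother as a block). Dppa4 was read at 13.95 and 14.07 in KO lines, against 13.37 and 13.54 in WT lines, and did not pass (limma adjusted p = 0.154). Pluripotent cell markers were detected on every array: 7 of 8 had a probe and all 7 were well above background in all 4 lines. On each array 68.5% to 70.4% of probes were well above background, and no spot was saturated. The 2 KO arrays correlated at 0.988 across probes and the 2 WT arrays at 0.991, against 0.974 to 0.982 between genotypes. Log2 signal here is the processed probe brightness after scaling each array to a common 75th percentile, and it compares arrays for 1 probe, not genes with each other.

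None of the 10 genes passed the test between KO and WT lines, but most of those measured read lower in KO lines. Of the 7 that could be tested, each of them well above background (brighter than the local background by the scanner software's criterion) on all 4 arrays, 0 were called lower and 0 higher at a limma adjusted p under 0.05. Across all 21639 tested genes and transcripts, 1.67% were called lower and 0.176% higher. Before adjustment, 4 of the 7 were lower at p under 0.05 (Flt1, Tek, Eng and Thbd) and 0 higher, where 12.4% and 11.1% of all tested genes were. The 2 KO arrays lay below both WT arrays for 6 of the 7, a pattern shown by 24.5% of all tested genes, and above both for 0 of the 7 (37.7% of all tested genes). A difference of at least 2-fold downward in both mothers' pairs was found for 4 of the 7 (Kdr, Flt1, Eng and Thbd) and for 6.94% of all tested genes, and upward for 0 of the 7 (1.56%). The median log2 difference of the 7 was -1.21, beside 0.10 for all tested genes. Because the genes were chosen with earlier results of these data known, these comparisons are no independent test of them. In RNA from a whole culture, fewer cells of a type and less RNA per cell cannot be told apart.

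**Figure D1:**
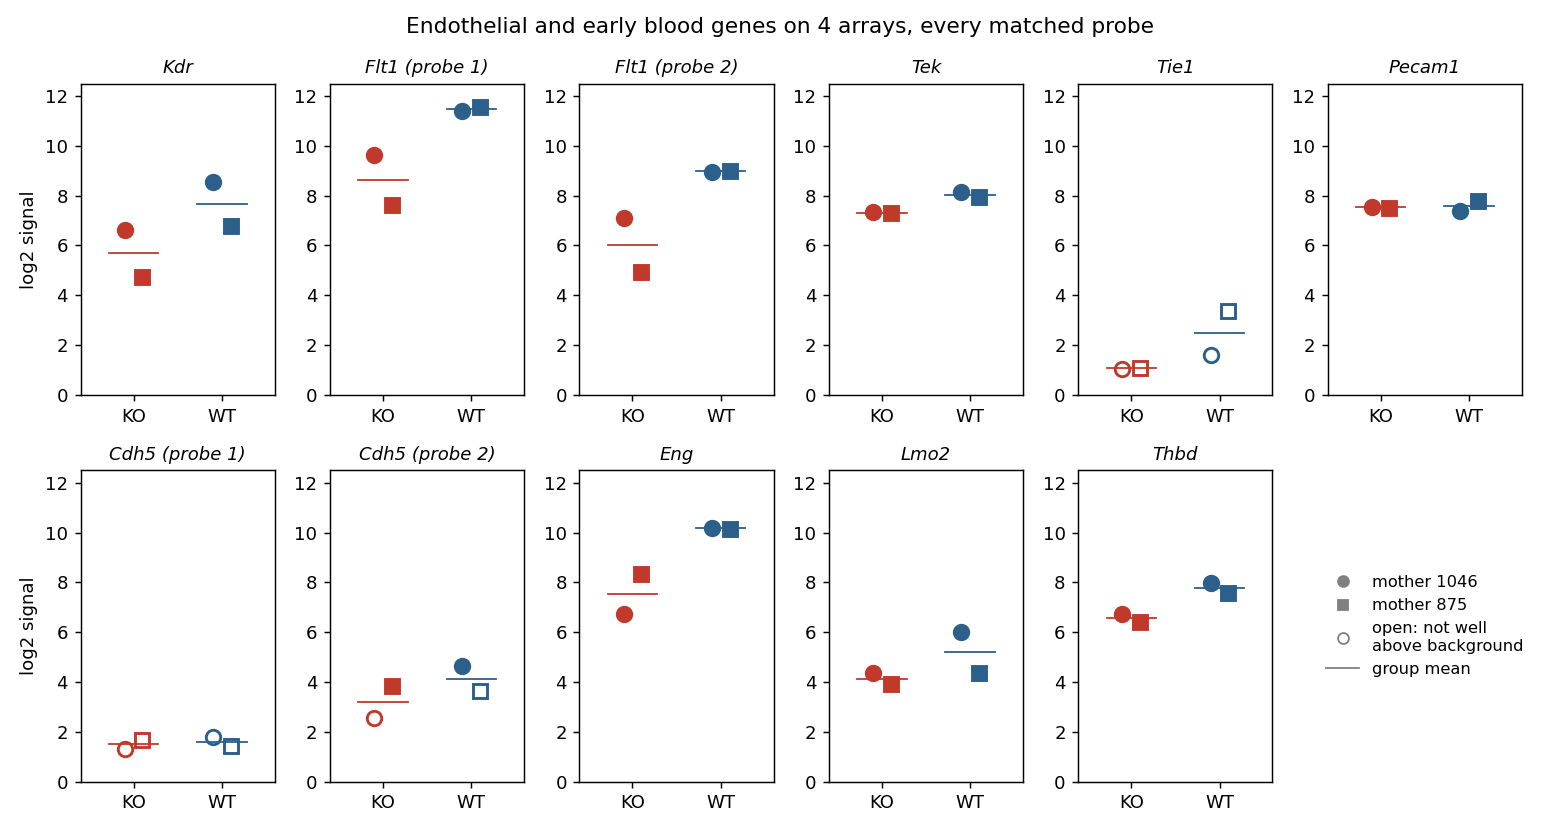
Log2 signal (vertical axis) of every matched probe in the 2 KO and 2 WT lines, with the mother shown by the symbol, group means as lines and open symbols where the scanner software did not call the spot well above background. Flt1, Eng, Kdr, Thbd and Tek lie lower in both KO lines, Pecam1 overlaps, and Tie1 and the first Cdh5 probe are at background throughout.

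Flt1, the gene of VEGF receptor 1, which also has a secreted form that binds the ligand away, had the greatest difference. Its brighter probe read 9.65 and 7.64 in KO lines, against 11.42 and 11.55 in WT lines. The second probe, to the same accession, read 7.09 and 4.92 in KO lines, against 8.97 and 9.0 in WT lines. Both probes thus gave WT lines that lay close together and KO lines that lay apart, with the line from mother 875 the lower, and no overlap of the groups. The log2 difference was -2.84 (SE 0.75, 95% interval -4.99 to -0.70, n = 2 per group), a mean 7.17-fold lower signal in KO lines. The limma adjusted p was 0.158, so the difference did not pass. Within pairs the KO line was 3.41-fold lower for mother 1046 and 15.1-fold lower for mother 875, and the second probe differed by -1.88 and -4.08 on the log2 scale. Probe positions within the transcript were not used here, and the membrane-bound and secreted forms of Flt1 were not separated.

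Eng encodes endoglin, a co-receptor for TGF-beta family ligands including BMP9 on endothelial cells. Its probe read 6.74 and 8.34 in KO lines, against 10.19 and 10.15 in WT lines. WT lines again agreed closely, with an SD of 0.03, while the KO lines were apart with an SD of 1.13. The order of the KO lines was the opposite of that for Flt1: Eng was lower in the KO line of mother 1046, where the pair differed 11-fold, than in that of mother 875, where it differed 3.51-fold. The log2 difference was -2.63 (SE 0.60, 95% interval -4.35 to -0.91, n = 2 per group), or 6.2-fold lower in KO lines, with a limma adjusted p of 0.134. With KO replicate 1 left out, Flt1 (log2 difference -3.85, limma adjusted p = 0.0444) and Eng (-1.83, 0.0489) were both called lower, in a fit that takes the lone KO line to vary like the WT lines and that called 3.14% of all tested genes lower. Over all alternatives the limma adjusted p ranged from 0.0444 to 0.453 for Flt1 and from 0.0489 to 0.413 for Eng.

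Kdr is the gene of VEGF receptor 2 (Flk1), the main signalling receptor for VEGF. Its readings were lower in the KO line of each pair and, within each genotype, in the line of mother 875. The difference between mothers was not tested. Kdr read 6.64 and 4.74 in KO lines, against 8.56 and 6.78 in WT lines. The lines of mother 875 were lower than those of mother 1046, with log2 differences of -1.90 among KO lines and -1.78 among WT lines. Because of that spread the KO line of mother 1046 came within 0.14 of the WT line of mother 875, without overlap. The KO line was lower in each pair by nearly the same amount, 3.78-fold for mother 1046 and 4.11-fold for mother 875. The log2 difference of -1.98 (SE 0.97, 95% interval -4.74 to 0.78, n = 2 per group) had a limma adjusted p of 0.3. That fit leaves the mother out. With the mother as a block the SE was 0.13 and the limma adjusted p 0.0872, which did not pass. The log2 difference was -1.03 without KO replicate 2, -1.09 without WT replicate 1, -2.87 without WT replicate 2 and -2.93 without KO replicate 1. Normexp background correction gave -1.24 (75th percentile scaling) and -1.06 (quantiles).

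The angiopoietin receptor genes gave little signal change or little signal. Tek (Tie2), the angiopoietin receptor, read 7.36 and 7.29 in KO lines, against 8.15 and 7.93 in WT lines. These groups did not overlap and were tight, but the step was small: a log2 difference of -0.72 (SE 0.15, 95% interval -1.14 to -0.30, n = 2 per group), 1.65-fold lower in KO lines, with a limma adjusted p of 0.116. Tie1 stayed at background on all 4 arrays, with log2 signals of 1.03 and 1.09 in KO lines and 1.59 and 3.35 in WT lines, so it has no measured difference. The lowest signal that counted as well above background was between 3.24 and 3.58 on these arrays.

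The junction and adhesion genes showed no difference between genotypes that could be measured. Pecam1 (CD31) read 7.56 and 7.50 in KO lines, against 7.38 and 7.78 in WT lines. The groups overlapped, and the log2 difference of -0.04 (SE 0.19, 95% interval -0.60 to 0.51, n = 2 per group, limma adjusted p = 0.9) changed its sign with the scaling of the arrays. Cdh5, the VE-cadherin gene that defines endothelial junctions, stayed at background on all 4 arrays with 1 of its 2 probes, which read 1.32 and 1.68 in KO lines and 1.79 and 1.42 in WT lines. Its other probe read 2.57 and 3.85 in KO lines, against 4.63 and 3.65 in WT lines, and was well above background in KO 2 and WT 1 only. Cdh5 was therefore detected in 1 line of each genotype at most, and was not tested. Emcn, another endothelial marker, was also at background throughout. Of 10 endothelial markers, 7 were tested, and Cdh5, Tie1 and Emcn were at or near background. Among those tested, Kdr, Flt1, Tek, Esam, Icam2 and Vwf were well above background on all 4 arrays. Cldn5 was well above it in both WT lines and 1 KO line.

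Thbd encodes thrombomodulin, a surface protein that turns thrombin to an anticoagulant role. It read 6.72 and 6.42 in KO lines, against 7.99 and 7.57 in WT lines. The groups lay apart and the pairs differed by like amounts, 2.41-fold for mother 1046 and 2.21-fold for mother 875. Among the 10 genes it had the smallest p, with a log2 difference of -1.21 (SE 0.22, 95% interval -1.85 to -0.57, n = 2 per group) and a limma adjusted p of 0.104. Lmo2, the gene of a LIM-only bridging protein of the Tal1 complex, read 4.36 and 3.91 in KO lines, against 6.01 and 4.37 in WT lines. Only the WT line of mother 1046 stood out, since KO 1 and WT 2 were 0.008 apart. The Lmo2 log2 difference was -1.05 (SE 0.64, 95% interval -2.88 to 0.77, n = 2 per group, limma adjusted p = 0.371), and without WT replicate 1 it was -0.24.

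**Figure D2:**
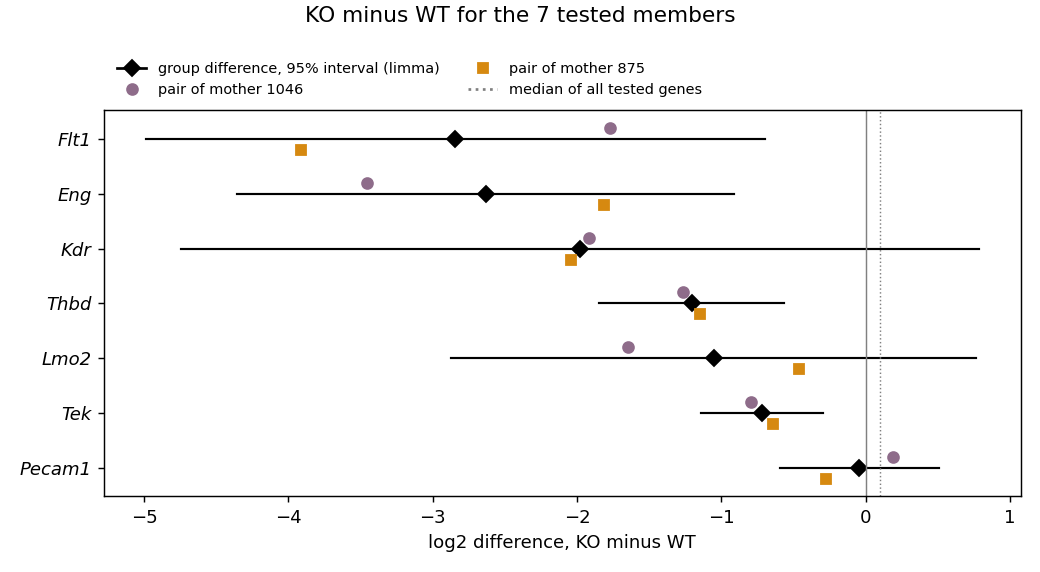
Log2 difference, KO minus WT (horizontal axis), of the 7 tested genes, with the group difference and its 95% interval from limma and the difference within each mother's pair. The pairs agree closely for Kdr, Thbd and Tek, are far apart for Flt1 (-1.77 and -3.91) and Eng (-3.45 and -1.81) in opposite order, and lie on either side of 0 for Pecam1.

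Other genes of vessels and early blood were read from a list of 88 genes in 6 roles, also chosen with earlier results of these data known. Of these, 87 had a probe and 75 were tested. The test called 2 lower (Cldn5 and Itgb3) and 0 higher, where 1.67% and 0.176% of all tested genes were called. Of the 75, 41 had a negative and 34 a positive difference, beside 8829 negative and 12810 positive of all 21639, and their median log2 difference was -0.05, beside 0.10. Without adjustment, 12 had a limma p under 0.05 and a negative difference, and 10 a positive one (12.4% and 11.1% of all tested genes). The fit with the mother as a block called 0 of the 75.

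Cldn5, which encodes the tight-junction protein claudin-5 of endothelial barriers and some epithelia, was called lower. It read 3.04 and 3.99 in KO lines, against 9.19 and 8.36 in WT lines. It entered the test only because both WT lines were well above background, a rule that favours a lower KO reading. Among KO lines only KO 2 was well above background. The KO 1 reading is thus only a bound, and without it the log2 difference was -4.78 and no longer passed (limma adjusted p = 0.0539). With both KO lines, the fitted log2 difference was -5.26 (SE 0.48, n = 2 per group, limma adjusted p = 0.0409, or 0.112 with the mother as a block), and under normexp background correction it was -2.78. Itgb3, which encodes integrin beta 3, a partner in the platelet fibrinogen receptor that is also made by other adherent cells, read 7.88 and 7.74 in KO lines, against 9.53 and 9.26 in WT lines. It fell 2.99-fold (log2 difference -1.58, SE 0.16, n = 2 per group, limma adjusted p = 0.0497, or 0.0972 with the block). Both calls sat near the threshold: over the other settings the limma adjusted p ranged from 0.0268 to 0.194 for Cldn5 and from 0.0345 to 0.233 for Itgb3.

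Among 12 receptors and co-receptors, 0 passed in limma (3 lower and 1 higher without adjustment). For this role and each role below, the unadjusted shares of all tested genes were 12.4% lower and 11.1% higher. Robo4, the endothelial roundabout receptor gene, read 11.16 and 11.81 in KO lines, against 8.84 and 8.27 in WT lines, a log2 difference of 2.93 that just missed the threshold (limma adjusted p = 0.0576). S1pr1, a sphingosine-1-phosphate receptor gene, and Flt4, the gene of VEGF receptor 3, had log2 differences of -1.35 and -0.88 (limma adjusted p of 0.0815 and 0.12). In the pairs of both mothers, Robo4 was higher and Flt4 lower in the KO line.

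Of 12 ligands 9 were tested and 0 passed in limma (1 lower and 2 higher unadjusted). The 3 with the smallest p were Vegfb, with a log2 difference of 0.58, Bmp4, a mesoderm-inducing ligand, with 1.18, and Apln, the apelin gene, with -0.998 (limma adjusted p between 0.134 and 0.165). Vegfa and Pgf, which both bind Flt1, had differences of 0.52 and -0.76 and did not pass (limma adjusted p of 0.39 and 0.235). Both probes of the Tek ligand gene Angpt1 were at background on all 4 arrays.

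Endothelial transcription factors were split in sign. Of 15 tested, 0 passed in limma (3 lower and 1 higher unadjusted). Ets1, an ETS family member, read 8.18 and 7.27 in KO lines, against 10.66 and 9.95 in WT lines, a log2 difference of -2.58 (limma adjusted p = 0.0946). That is its brightest probe, and its other tested probes gave smaller differences of -1.536 and -1.625. Foxc1, a forkhead factor gene, differed by -2.08 and Sox7, an endothelial and primitive endoderm factor gene, by 1.44 (limma adjusted p of 0.103 and 0.114). Erg, another endothelial ETS factor gene, was at background on all 4 arrays.

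Endothelial surface, junction and secreted protein genes had a positive median of 0.30 over 13 tested genes. Of these, limma called 1 lower (Cldn5) and 0 higher (1 lower and 2 higher unadjusted). Plvap, the gene of the fenestra diaphragm protein, differed by 1.07 and Jam2, a junctional adhesion molecule gene, by 2.25 (limma adjusted p of 0.0927 and 0.126). Each was higher in both KO lines than in either WT line, as were 37.7% of all tested genes. Of 14 tested blood transcription factors and partners, 0 passed in limma (2 lower and 2 higher unadjusted). Gata2, a factor of blood progenitors, differed by -1.31, Gata1, the erythroid factor, by 1.45, and Runx1, needed for definitive blood, by -0.43 (limma adjusted p of 0.13, 0.138 and 0.173). Ldb1, which encodes the scaffold that joins Lmo2 and Tal1, differed by 0.47 (0.204).

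Of 12 tested early blood surface and globin genes, limma called 1 lower (Itgb3) and 0 higher (2 lower and 2 higher unadjusted). Hbb-bh1, an embryonic globin gene, was well above background in both WT lines, at 4.68 and 4.29, and not in KO lines, which read 2.67 and 2.32. With the KO level set at the dimmest signal called well above background, the KO lines were 2.3-fold lower. Some spots brighter than that level were not called on these arrays, so the bound is approximate. The difference did not pass (limma adjusted p = 0.0565). Hbb-bh1 entered the test only because both WT lines were well above background, a rule that favours a lower KO reading. The bound depends on the background correction: under normexp the log2 difference was -0.43 with the 75th percentile and -0.25 with quantiles. Spn, the gene of the leukocyte surface protein CD43, differed by 1.43 (limma adjusted p = 0.171).

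**Figure D3:**
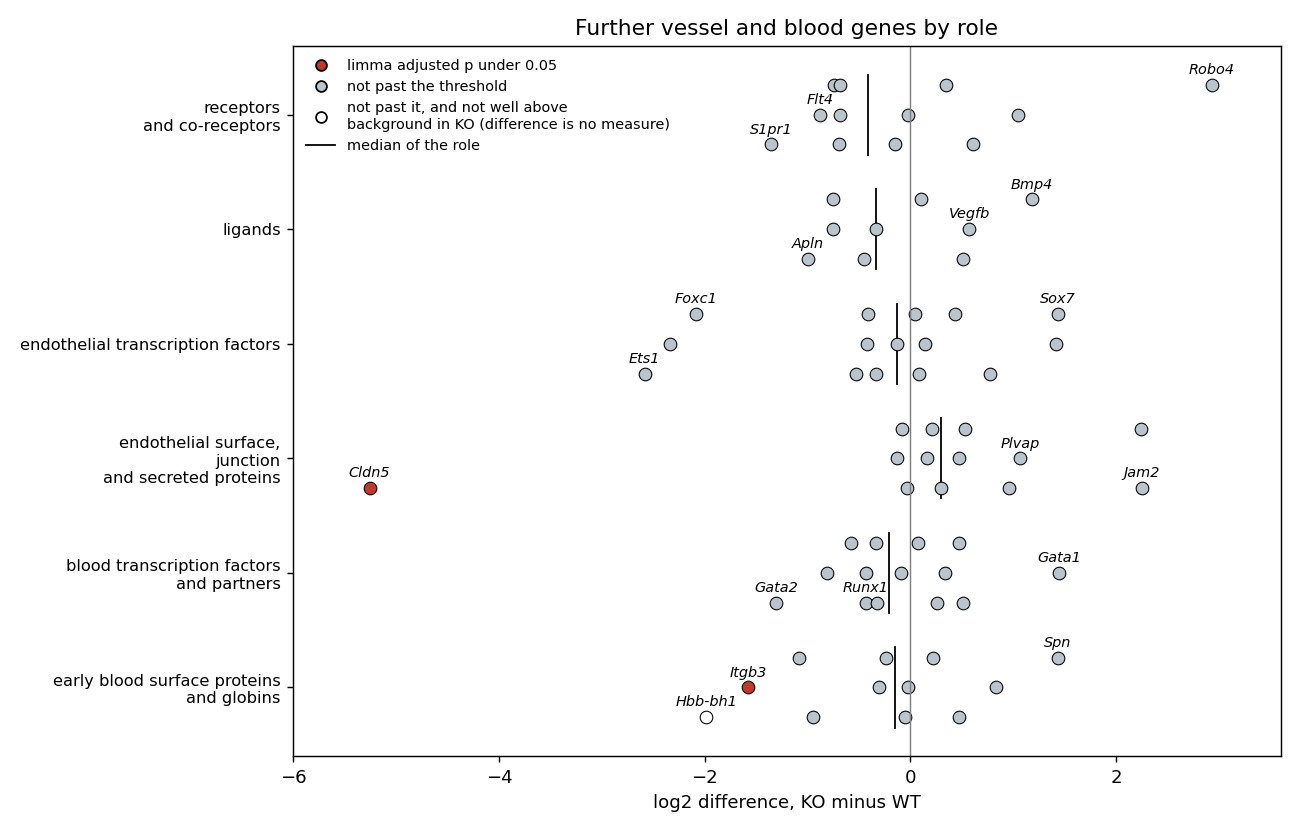
Log2 difference, KO minus WT (horizontal axis), of 75 tested vessel and blood genes in 6 roles, with role medians as lines and names for the 3 genes of each role with the smallest p. Filled red points are Cldn5 and Itgb3, the genes past the limma threshold, and Robo4 lies at 2.93 on the opposite side.

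Markers of other cell types also differed between the genotypes, and their part in the differences above was not tested. Each list is given by its signs, its median log2 difference and its summed signal, which the 1 or 2 brightest probes can set. Of all 21639 tested genes and transcripts, 8829 had a negative and 12810 a positive difference. Limma called 1.67% of them lower and 0.176% higher (12.4% and 11.1% unadjusted), and their median log2 difference was 0.10. Trophoblast markers had 9 of 10 tested differences negative, with 1 called lower and a median of -1.98, and summed to 75430 and 57190 in KO lines, against 292500 and 387800 in WT lines. Early mesoderm markers had 6 of 9 negative, with 1 called lower and a median of -0.48, and summed to 1585 and 1085 in KO lines, against 5118 and 2978 in WT lines. Fibroblast or feeder markers had 8 of 10 negative, with 2 called lower and a median of -0.73. Their sums were 5953 and 6486 in KO lines, against 16200 and 6508 in WT lines, so that KO 2 and WT 2 were nearly level. The 2 called markers, Fbn1 and Mmp2, did not follow the sums. Fbn1 read 5.24 and 5.62 in KO lines, against 8.24 and 8.26 in WT lines. Mmp2 read 7.09 and 7.50 in KO lines, against 10.72 and 10.74 in WT lines. Mature blood markers had 4 of 4 negative (8 were listed) with a median of -0.67 and 0 called (limma; 1 lower unadjusted), and summed to 304 and 203 in KO lines, against 323 and 356 in WT lines. Of the myeloid markers in that list, Lyz2 and Itgam were at background on all 4 arrays, whereas Cd14 and Csf1r were well above it on all 4. Cd14 read 7.9 and 7.0 in KO lines, against 7.7 and 8.0 in WT lines. Csf1r read 4.22 and 4.42 in KO lines, against 5.55 and 5.11 in WT lines.

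The endothelial list itself had 7 of 10 markers tested, 4 negative and 3 positive, with 1 called lower (Cldn5) and a median of -0.72. It summed to 1541 and 1284 in KO lines, against 4313 and 4045 in WT lines, and it holds Flt1, Kdr and Tek, described above. The tested markers outside those and Cldn5 were Esam, Icam2 and Vwf, with positive differences of 0.53, 2.25 and 0.30, none of which passed (limma adjusted p of 0.374, 0.474 and 0.776).

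Signs were mixed in the endoderm and mural lists. Parietal and primitive endoderm markers had 7 of 12 negative and 5 positive, with 2 called lower (Lrp2 and Dab2), 1 called higher (Lama1) and a median of -0.58. Gata4, Gata6, Sox7, Sox17 and Lama1 were higher in the KO line of both pairs. Their sums, 28990 and 26460 in KO lines, against 58960 and 61860 in WT lines, were nevertheless lower in KO lines. Mural cell markers had 2 of 5 negative (Tagln and Acta2, the brightest) and a median of 0.28, with 0 called (limma; 2 lower and 1 higher unadjusted). They summed to 35770 and 21160 in KO lines, against 111600 and 96390 in WT lines. Pluripotent cell markers alone had sums that were higher in both KO lines, 595400 and 701200, against 471100 and 461100 in WT lines, with 7 of 7 positive, 0 called (limma; 3 higher unadjusted) and a median of 0.85.

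**Figure D4:**
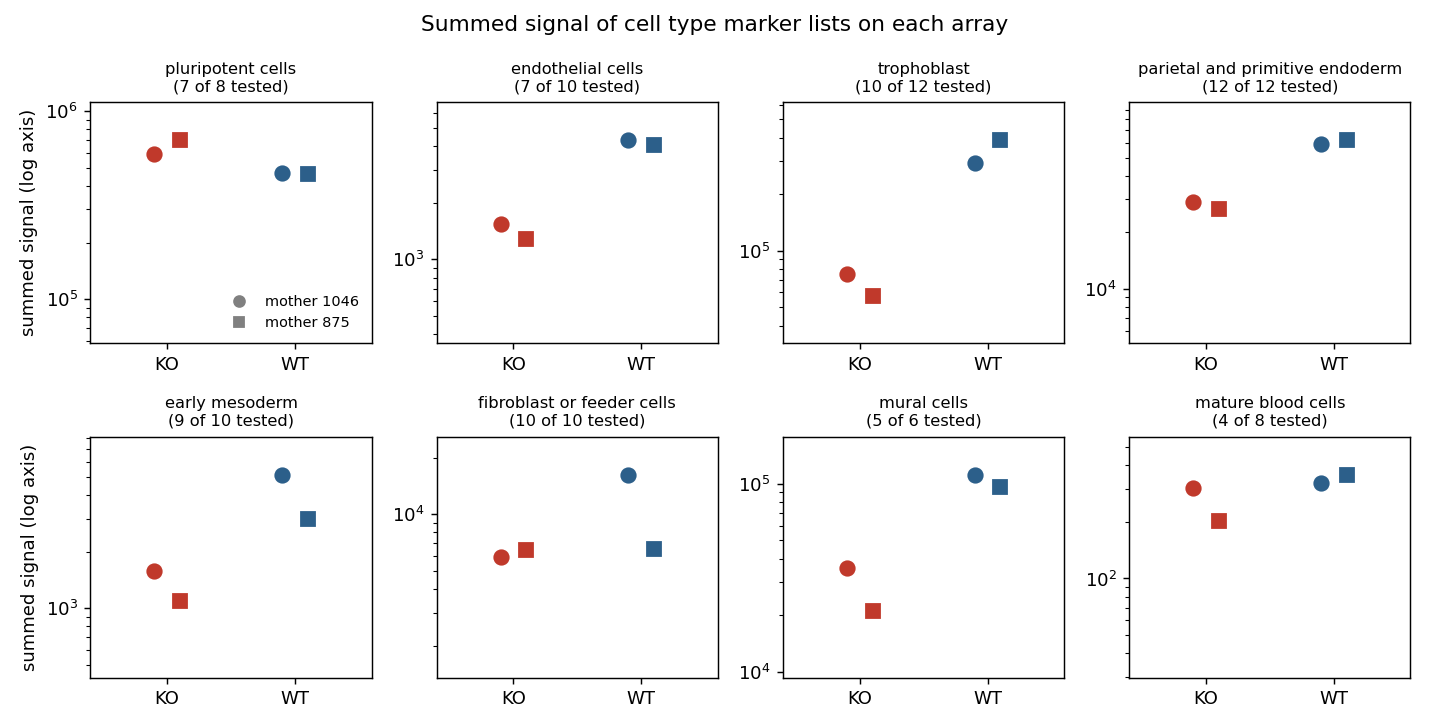
Summed linear signal (log axis) of the tested markers of 8 cell types in the 2 KO and 2 WT lines, with the mother shown by the symbol. Sums of 7 lists are lower in both KO lines than in either WT line, by little for mature blood and for KO 2 against WT 2 in the fibroblast list, and the pluripotent sum is higher; the mural and endoderm lists hold markers of both signs.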

How the data were processed

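Per the file headers, Agilent Feature Extraction (version 10.7.3.1) gave each spot's intensity. Its processed intensity has the background subtracted and spatial trends removed within an array, whereas the median spot and background intensity are raw. The deposited series table holds log2 values whose scale was read from the values: its 4 columns share a median of 6.55, are quantile-normalized and follow log2 of the processed signal (correlations 0.999901 to 0.999988). Per the labels, the study's analysis used GeneSpring GX11. The annotation build in the headers is mm9.

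Control spots and outlier spots were left out, spots of a probe averaged, and log2 processed signals scaled to the 75th percentile. Accessions matched 1 RefSeq symbol (GRCm38.p6) for 26690 of 41174 probes. A gene was represented by its brightest probe among those called well above background in both KO or both WT lines, giving 21639 genes and transcripts. KO and WT lines were compared by limma (version 3.58.1, R version 4.3.3), with Benjamini-Hochberg adjustment at 0.05 over all of them; n is 2 lines per group, which limits precision. An exact permutation test of 2 lines against 2 cannot go below p = 0.333. The code was tested on simulated data. All arrays lay on 1 slide and 1 scan.

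The members and gene lists were chosen with earlier results of these data known. Named genes were all members, Dppa2, Dppa4 and, of each role, the 3 with the smallest p; Vegfa, Pgf, Ldb1 and genes at background were added after their values were seen. Equal replicate numbers mark a shared mother in the labels, so a fit with the mother as a block was made too; over genes, the differences between mothers correlated at 0.189 in the 2 genotypes. Normexp used the median spot signal with an offset of 50.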

Additional observations from a re-analysis of the deposited data

Results flagged for a closer look

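Pecam1 was singled out because its difference pointed opposite ways in the pairs of the 2 mothers: KO minus WT was 0.19 on the log2 scale for mother 1046 and -0.28 for mother 875. Each pair is 1 KO and 1 WT line, and the difference between the pairs was not tested. No group had the 4 lines needed to look for outlying samples.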

How the results depend on the processing

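The 7 tested members kept their sign and stayed uncalled under all 14 alternatives, with 2 exceptions. Flt1 and Eng were called when KO replicate 1 was left out, so members called lower ranged from 0 to 2 over the fits that leave out a line. Pecam1 turned positive under quantile normalization (0.078), median centring (0.124), normexp with quantiles (0.069) and the deposited table (0.053), and ranged from -0.25 to 0.16 over the fits that leave out a line. The median of the members was -0.72 under normexp with quantiles and -1.59 with every probe taken separately, where Flt1 counts by both probes, and ranged from -1.87 to -0.996 without 1 line. Kdr had a limma adjusted p of 0.0872 with the mother as a block (0.0872 to 0.669 over its alternatives), and the block called no member.

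Over all genes, limma called 0 lower and 0 higher with the replicate block (5014 at an unadjusted p under 0.05) and 0 of either with probes above background on all 4 arrays (4628 unadjusted). Over the fits that leave out 1 line the calls ranged from 0 to 679 lower and from 0 to 64 higher. They were 0 without WT replicate 1 (2900 unadjusted), WT replicate 2 (2685) or KO replicate 2 (3917). Higher calls were 69 under normexp with the 75th percentile, 10 with no filter on dim probes and 80 with an intensity trend and robust prior, against 38.

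Of the further vessel and blood genes, limma called 0 lower under quantile normalization, the deposited table, no filter on dim probes, all 4 arrays above background and the replicate block, 1 under median centring, 4 under normexp with the 75th percentile, and 0 to 1 without 1 line. It called 1 higher under normexp with the 75th percentile, normexp with quantiles and the trend, and 0 to 1 without 1 line. The cause of these shifts was not tested. With 2 lines per group, Kdr and Lmo2 have intervals that include 0, and genes near background (Tie1, Cdh5, Hbb-bh1 and, in KO 1, Cldn5) have only bounds or no difference.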

Other observations

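Some further vessel and blood genes are given here by line. They were picked after their values were seen. Etv2, the ETS factor gene at the top of the endothelial and blood program, was well above background in every line, at 11.26 and 10.82 in KO lines and 11.18 and 10.74 in WT lines, so that its lines paired by mother and not by genotype. Hopx, a homeodomain-only gene of mesoderm and heart, did the same, with 9.05 and 10.65 in KO lines and 8.78 and 10.39 in WT lines.

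Icam2, an adhesion molecule gene of endothelium, read 3.67 and 8.50 in KO lines, against 4.05 and 3.63 in WT lines, so KO 2 alone was high. Meis1, a homeobox gene of blood progenitors, read 7.80 and 5.56 in KO lines, against 6.85 and 7.16 in WT lines, with KO 2 alone low. Sox18, a vascular SOX factor gene, read 6.48 and 5.71 in KO lines, against 7.81 and 9.04 in WT lines, a log2 difference of -2.33 that did not pass (limma adjusted p = 0.137). None of these genes passed the test between genotypes, and no cause was tested for any of them.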
